A study of Mus musculus with 16 samples.

Results

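The machinery that carries proteins into mitochondria, folds and cleaves them there, shapes the organelle and serves its own transcription and translation was examined in T cells that lack the transcription factor subunit GABPα. Members were chosen by gene symbol, with no use of measured values. They were all genes of the array's gene table named Timm or Tomm, except Timm10, and a fixed list of chaperones, proteases, prohibitins, dynamins and mitochondrial gene expression factors. This gave 44 of the 12394 genes measured, each read from its brightest probe set over the 16 arrays. Of the other genes that the rule names, Phb, Tomm5 and Tomm6 were found only on probe sets that name several genes and were left out, and Mtif3 and Tsfm were not analysed here. Timm8a2 lay near the bottom of the scale in all 16 arrays, between 2.38 and 3.18, and its values carry little information.

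Naive CD8+ and CD4+ T cells (low in CD44 and CD25, high in CD62L) came from mouse spleen and lymph nodes. All mice carried loxP-flanked Gabpa alleles. KO mice had in addition the CD4-Cre transgene, which is switched on at the double-positive stage of thymocyte development, so that the cells had lacked the gene since then, and WT mice had no Cre. Cells were taken after 18 h of culture with IL-2 and antibodies to CD3 and CD28, or directly from the sort (0 h), which gave 8 groups of lineage, genotype and time with 2 arrays each. The cultured and the freshly sorted cells differ both in stimulation and in culture, and these cannot be told apart. Per the labels, each sort was divided between the 0-h and the 18-h sample, so that these come in pairs from the same cells, although the labels do not state which array numbers belong together or which mice they came from. The 2 arrays of a group are labelled biological replicates, and the p-values reflect the spread of these samples alone, which may be technical. Calls rest on a fit without pairing, and values with same-numbered arrays of a lineage as a block are given where they change a call or a count.

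Almost all mitochondrial proteins are made in the cytosol. They enter through the TOM complex of the outer membrane, are sorted into or across the inner membrane by the TIM22 and TIM23 complexes, with small TIM proteins escorting hydrophobic cargo in between, and are pulled in, cleaved and folded by mitochondrial HSP70, the processing peptidase and the HSP60 chaperonin. T cells that leave quiescence enlarge and remodel their mitochondria, and GABP, an Ets family factor, is known as an activator of many nuclear genes for mitochondrial proteins.

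Most lineage markers followed the labels: Cd8a lay at 10.89 or above in all CD8+ arrays and at 7.56 or below in all CD4+ ones. Cd8b1, Cd4 and Zbtb7b also separated the lineages, although Cd8b1 reached 8.52 in a CD4+ array. Runx3 (5.28 to 5.7 in CD8+ and 5.0 to 5.43 in CD4+ arrays) and Cd40lg (4.19 to 4.85 and 4.36 to 5.09) overlapped. Of 6 B cell markers, Cd79a, Pax5, Blk and Cd22 lay at or below 4.98 in all arrays, Ms4a1 reached 6.38 in a CD4+ array, and Cd79b ran from 5.11 to 7.57 in CD8+ and from 3.45 to 6.11 in CD4+ cells. The NK cell receptor gene Klrd1, which T cells can also express, ran from 8.68 to 11.77 and from 3.10 to 9.30, whereas Ncr1 stayed at or below 3.61. What part such cells have in the results was not tested. All values are log2 probe set signals, and because probe sets differ in brightness for reasons other than transcript level, no gene is set against another by its level. In bulk samples, fewer cells of a type and less RNA per cell cannot be told apart. One library stood apart in RNA quality. For the actin and Gapdh controls, the mean excess of 3' over 5' probe sets was 3.76 in replicate 2 of the CD8 KO 18 h group, against 1.58 in CD4 WT 0 h replicate 1, 1.11 in CD8 KO 0 h replicate 2 and 0.46 to 0.85 in the other 13 arrays. The brightest probe set of Gabpa itself was not lower in KO cells (log2 differences of 0.31 and 0.12 in CD8+ cells and of 0.72 and 0.59 in CD4+ cells at 18 and 0 h). Where this probe set lies relative to the deleted part was not given in the sources used here, so that it checks nothing about the deletion.

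Because GABP recognises DNA around a GGAA core, the promoters of the members were read for the word CCGGAAG, which holds that core with the flanks that GABP sites commonly have. RefSeq promoter windows (GRCm38.p6, 250 bases before to 50 bases after a transcript start) were found for 40 of the 44 members. On either strand, 22 of the 40 (55.0%) held CCGGAAG at least once, against 16.3% of the 9888 genes on the array with a window and 9.93% of all 27025 genes with one. The longer word CCGGAAGT, each match to which is also a match to the shorter, was present in 12 members (30.0%), against 7.23% and 4.31%. A match is a description of the letters and not evidence of binding. The stretches below run 5' to 3' on the gene's strand, from 100 bases before the start to 50 after it, with each match in capitals. They are those of Mtx1, Tufm and Timm23, the 3 members that passed the test between KO and WT cells, of Hspe1, whose region is shared with the neighbouring Hspd1, the member with the largest response to stimulation, and of Timmdc1, the member whose window held the most matches.
Mtx1: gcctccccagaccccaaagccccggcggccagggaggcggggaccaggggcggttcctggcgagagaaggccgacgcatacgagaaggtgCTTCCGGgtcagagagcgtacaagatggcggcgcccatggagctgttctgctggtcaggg
Tufm: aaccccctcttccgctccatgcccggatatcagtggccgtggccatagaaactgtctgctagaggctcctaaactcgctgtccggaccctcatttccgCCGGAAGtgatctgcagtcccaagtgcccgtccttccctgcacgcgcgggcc
Timm23: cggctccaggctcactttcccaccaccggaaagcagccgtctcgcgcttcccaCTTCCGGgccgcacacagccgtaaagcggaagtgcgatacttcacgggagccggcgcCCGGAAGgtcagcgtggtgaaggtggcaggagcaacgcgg
Hspe1: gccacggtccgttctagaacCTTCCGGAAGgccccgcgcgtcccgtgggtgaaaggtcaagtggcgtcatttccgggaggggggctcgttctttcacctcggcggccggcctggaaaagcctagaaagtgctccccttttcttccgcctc
Timmdc1: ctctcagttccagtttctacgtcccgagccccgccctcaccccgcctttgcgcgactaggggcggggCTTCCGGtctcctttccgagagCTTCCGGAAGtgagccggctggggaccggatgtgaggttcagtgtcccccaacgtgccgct
The stretches are chr3:89213858-89214007 (minus strand) for Mtx1, chr7:126487255-126487404 (plus strand) for Tufm, chr14:32201842-32201991 (minus strand) for Timm23, chr1:55088048-55088197 (plus strand) for Hspe1 and chr16:38522614-38522763 (minus strand) for Timmdc1. In Mtx1 the word began 10 bases before the start on the other strand, and in Tufm it began 2 bases before the start and ran across it. Timm23 held it at 47 bases before the start on the other strand, as part of the longer word, and at base 11 of the transcript. Hspd1 and Hspe1 are transcribed away from each other, and the pair of overlapping matches 80 and 77 bases before the start of Hspe1 is the same stretch of DNA as the pair found for Hspd1. Timmdc1 held 4 matches in its window, 3 of them in the stretch shown.

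Many members were higher in WT cells after stimulation. In WT CD8+ cells 16 of the 44 members were higher at 18 h than at 0 h and 1 was lower, where 8.21% of all genes were called higher and 7% lower (limma, adjusted p under 0.05 and a fold over 1.5). In WT CD4+ cells 23 members were higher and 1 was lower, where 12.2% of all genes were called higher and 14% lower. The CD8+ count rests on few arrays: in fits that each left out 1 array it ran from 4 (without CD8 WT 18 h replicate 2) to 20, with 7 and 6 without CD8 WT 0 h replicates 1 and 2, against 17 to 23 in WT CD4+ cells. Tested against a fold of 1.5 in place of 0, 1 member was higher in WT CD8+ and 12 in WT CD4+ cells. The median response of the members was 0.59 in WT CD8+ and 0.75 in WT CD4+ cells on the log2 scale, against medians of -0.06 and -0.08 over all genes. All 16 members that rose in WT CD8+ cells also rose in WT CD4+ cells, which is 69.6% of the 23. The other 7, Afg3l2, Gfm2, Mtx1, Opa1, Pmpcb, Timm17b and Timm22, were called in WT CD4+ cells alone in the fit without the block. Their differences in WT CD8+ cells ran between 0.03 and 0.82. With the replicate block Opa1, Pmpcb, Timm17b, Timm22, Timm8b, Timm10b and Tfb1m also rose in WT CD8+ cells (adjusted p between 0.00229 and 0.0487). In WT CD4+ cells the block added Tfb1m and Timm8b (adjusted p = 0.00641 and 0.0118). The difference of the response between the lineages was tested for each member, and 0 passed (limma, where 0.226% of all genes were called higher and 0.145% lower in CD8+ than in CD4+ cells; at an unadjusted p under 0.05, 0 members were higher and 2 lower). Those 2 were Hspd1, at -1.03 ± 0.39, and Hspa9, at -0.90 ± 0.33 (adjusted p = 0.402 and 0.385). The share of all genes at an unadjusted p under 0.05 was not computed. Counts of members at that threshold, here and below, are thus a description and show no excess.

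All 3 matrix chaperones measured rose in both lineages of WT cells, Hspd1 the most of any member. Hspd1 encodes HSP60, the chaperonin that folds imported proteins. In WT CD8+ cells its 2 arrays stood at 12.18 and 12.30 at 18 h, against 10.27 and 10.28 at 0 h, a difference of 1.97 ± 0.28 (SE, adjusted p = 0.000548). In WT CD4+ cells they stood at 12.73 and 12.80 at 18 h, against 9.45 and 10.09 at 0 h, a difference of 3.0 ± 0.28 (adjusted p = 8.3e-06). The 18-h arrays thus lay above every 0-h array in both lineages, as they did for 25.1% of all genes in WT CD8+ and 24.5% in WT CD4+ cells. Hspa9, for mitochondrial HSP70, the motor of import into the matrix, had 10.51 and 10.39 in WT CD8+ cells at 18 h, against 9.35 and 9.31 at 0 h (1.12 ± 0.23, adjusted p = 0.00606). In WT CD4+ cells it had 10.99 and 11.08 at 18 h, against 8.71 and 9.33 at 0 h (2.02 ± 0.23, adjusted p = 4.31e-05). Hspe1, for HSP10, the lid of the HSP60 chamber, rose by 0.81 ± 0.21 and 1.23 ± 0.21 in WT CD8+ and CD4+ cells (adjusted p = 0.0169 and 0.000617). In WT CD8+ cells Hspa9 did not pass with the mean over its probe sets. Against a fold of 1.5 Hspd1 passed there, and Hspa9 and Hspe1 did not. Across the means of the 8 groups, Timm9, Timm17a and Hspa9 had the patterns most like that of Hspd1 (Pearson r = 0.988, 0.986 and 0.984 over 8 group means, which share arrays and normalization).

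In the outer membrane the response was uneven. Tomm40, the import pore, stood in WT CD8+ cells at 7.69 and 8.01 at 18 h, against 6.87 and 6.60 at 0 h (1.12 ± 0.35, adjusted p = 0.0472). In WT CD4+ cells it stood at 8.32 and 8.39 at 18 h, against 6.07 and 6.69 at 0 h (1.97 ± 0.35, adjusted p = 0.000936). Its call in CD8+ cells was kept in 6 of 16 fits that each left out 1 array, and the arrays at 18 and 0 h did not overlap in either lineage. Tomm70a, a receptor for carrier proteins, rose by 0.71 ± 0.22 and 1.19 ± 0.22 in WT CD8+ and CD4+ cells (adjusted p = 0.0457 and 0.00134), and its call in CD8+ cells too was kept in 6 of 16. The other receptors did not pass, Tomm20 at 0.15 ± 0.16 and 0.22 ± 0.16 and Tomm22 at 0.38 ± 0.20 and 0.34 ± 0.20. Mtx1, for metaxin 1 of the sorting and assembly machinery, passed in WT CD4+ cells at 0.68 ± 0.17 (adjusted p = 0.00839) and stood at 0.47 ± 0.17 in WT CD8+ cells (adjusted p = 0.0815).

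At the inner membrane the core of the TIM23 channel rose in both lineages. Timm50, its receptor, had 8.30 and 8.80 in WT CD8+ cells at 18 h, against 7.05 and 7.28 at 0 h (1.38 ± 0.24, adjusted p = 0.00189). In WT CD4+ cells it had 8.98 and 8.94 at 18 h, against 7.63 and 7.33 at 0 h (1.48 ± 0.24, adjusted p = 0.000461). All 18-h arrays of Timm50 lay above all 0-h arrays of WT cells. Timm17a and Timm23, which form the channel, rose by 1.21 ± 0.25 and 1.16 ± 0.19 in WT CD8+ cells and by 1.61 ± 0.25 and 1.46 ± 0.19 in WT CD4+ cells. Of the 10 members of this group 3 rose in WT CD8+ and 6 in WT CD4+ cells, where Timm17b, Timm22 (the carrier translocase) and Pmpcb (the catalytic subunit of the processing peptidase) were added. The 10 include Timmdc1, which was placed here with no check that it acts in import. Timm44, which tethers HSP70 to the channel, stood at 0.21 ± 0.26 and 0.42 ± 0.26 (adjusted p = 0.695 and 0.286). Pmpca, the partner of Pmpcb, stood at 0.21 ± 0.19 in WT CD8+ cells and at 0.57 ± 0.19 in WT CD4+ cells, where its adjusted p of 0.0339 came with a fold just under 1.5.

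Of the 6 intermembrane space chaperones, 3 rose in each lineage of WT cells. Timm8a1 had 9.69 and 10.20 in WT CD8+ cells at 18 h, against 8.52 and 8.60 at 0 h (1.39 ± 0.29, adjusted p = 0.00542). In WT CD4+ cells it had 10.55 and 10.21 at 18 h, against 8.98 and 8.32 at 0 h (1.73 ± 0.29, adjusted p = 0.000549), with no overlap between times in either lineage. Its partner Timm13 moved less. Timm13 had 10.33 and 10.53 in WT CD8+ cells at 18 h, against 9.48 and 9.74 at 0 h (0.82 ± 0.24, adjusted p = 0.0325), and in WT CD4+ cells 10.61 and 10.75 at 18 h, against 9.87 and 9.63 at 0 h (0.93 ± 0.24, adjusted p = 0.00992). Timm9, which carries proteins toward TIM22, rose by 0.98 ± 0.21 and 1.38 ± 0.21 (adjusted p = 0.00696 and 0.000294). These calls turned on the probe set. With the brightest set whose name has no suffix (_s, _x or _a) Timm9 passed in neither lineage. With the mean over its sets it did not pass in WT CD8+ cells. Timm10b and Timm8b did not pass without the block, although Timm8b stood at 1.12 ± 0.42 in WT CD8+ and 0.87 ± 0.42 in WT CD4+ cells. With the block Timm8b passed in both lineages and Timm10b in WT CD8+ cells. Probe sets of Timm10b went in opposite directions in WT CD4+ cells. The set used had means of 9.93 at 18 h and 9.66 at 0 h. The brightest set without a suffix was lower at 18 h (-0.61 ± 0.20, limma adjusted p = 0.0417).

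The proteases moved in opposite directions. Spg7 encodes paraplegin, a subunit of the m-AAA protease of the inner membrane, and was the 1 member that fell in both lineages. It had 6.47 and 6.32 in WT CD8+ cells at 18 h, against 7.02 and 7.18 at 0 h (-0.70 ± 0.16, adjusted p = 0.0104), and in WT CD4+ cells 6.15 and 6.04 at 18 h, against 7.19 and 7.30 at 0 h (-1.15 ± 0.16, adjusted p = 0.000169). The 18-h arrays lay below the 0-h arrays, as they did for 34.8% of all genes in WT cells of each lineage. Afg3l2, the other subunit of that protease, rose by 0.76 ± 0.14 in WT CD4+ cells (adjusted p = 0.00122) and stood at 0.42 ± 0.14 in WT CD8+ cells (adjusted p = 0.0584). The matrix proteases rose: Lonp1 had 7.75 and 7.98 in WT CD8+ cells at 18 h, against 7.13 and 7.07 at 0 h (0.76 ± 0.17, adjusted p = 0.00911), and in WT CD4+ cells 8.02 and 7.76 at 18 h, against 7.18 and 7.21 at 0 h (0.69 ± 0.17, adjusted p = 0.00848). Clpp, the proteolytic core of the ClpXP protease, rose by 0.96 ± 0.27 and 1.23 ± 0.27 (adjusted p = 0.0293 and 0.0038), while its unfoldase Clpx stood at 0.24 ± 0.23 and 0.44 ± 0.23. Phb2, a prohibitin of the inner membrane scaffold, rose by 0.81 ± 0.18 and 1.29 ± 0.18 in WT CD8+ and CD4+ cells.

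Of 3 factors of mitochondrial translation, 2 rose in WT CD8+ and 3 in WT CD4+ cells. Gfm1, an elongation factor, rose by 0.97 ± 0.23 in WT CD8+ and 1.48 ± 0.23 in WT CD4+ cells (adjusted p = 0.0127 and 0.000399). Tufm, the elongation factor that brings tRNA to the mitochondrial ribosome, rose by 0.69 ± 0.17 and 1.14 ± 0.17 (adjusted p = 0.0123 and 0.000206). Gfm2, which acts in the recycling of the mitochondrial ribosome, stood at 0.03 ± 0.26 in WT CD8+ cells (adjusted p = 0.967) and rose by 0.77 ± 0.26 in WT CD4+ cells (adjusted p = 0.0431). That call of Gfm2 was kept in 7 of 16 fits that left out 1 array. It was also lost with the mean over probe sets, with the compared groups fitted alone and against a fold of 1.5. Tfam, which packages mitochondrial DNA, stood at 0.17 ± 0.18 and 0.12 ± 0.18. The transcription factor Tfb2m stood at 0.02 ± 0.24 and 0.48 ± 0.24, and the ribosomal RNA methyltransferase Tfb1m at 0.59 ± 0.34 and 0.74 ± 0.34. Of the fusion and fission genes, Opa1, of inner membrane fusion, passed in WT CD4+ cells (1.02 ± 0.28, adjusted p = 0.014) and stood at 0.78 ± 0.28 in WT CD8+ cells, while Mfn1 and the fission gene Dnm1l lay between -0.28 and 0.06 in both. With the block Opa1 passed in WT CD8+ cells too (adjusted p = 0.00245).

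**Figure D1:**
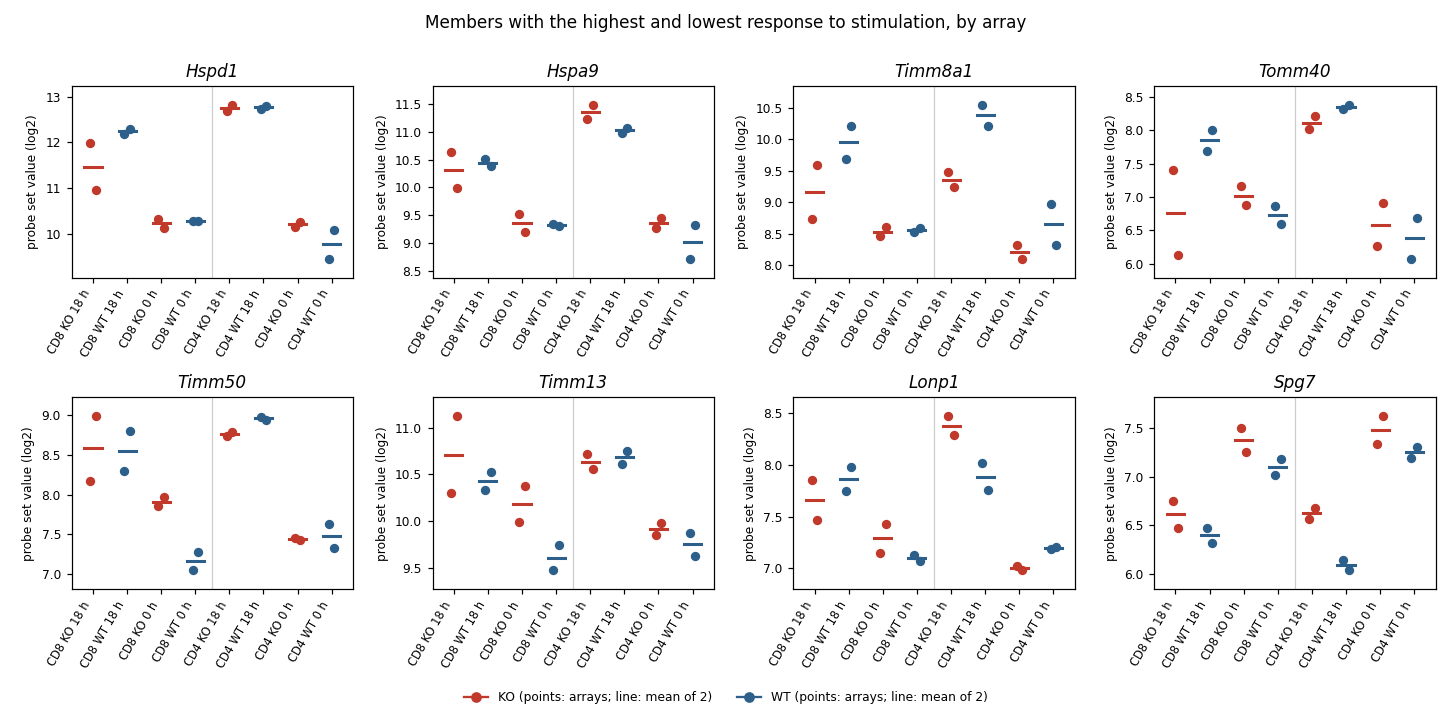
Probe set values (log2) of the 5 members with the highest and the 3 with the lowest mean response among the 17 called in WT cells of both lineages, in each of the 8 groups; points are arrays, lines are means of 2 arrays, KO in red and WT in blue. Hspd1 and Hspa9 are higher at 18 h than at 0 h in every group, Spg7 is lower at 18 h, and the 2 arrays of the CD8 KO 18 h group lie far apart for Hspd1, Tomm40 and Timm50.

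The same response was then followed in KO cells. In KO CD8+ cells 5 members were higher and 1, Spg7, was lower at 18 h, where 3.67% of all genes were called higher and 3.86% lower. In KO CD4+ cells 18 were higher and 1 was lower, where 11.1% of all genes were called higher and 13.2% lower. Of the 16 members that had risen in WT CD8+ cells, 15 had a smaller difference in KO CD8+ cells, with a median of 0.56 in KO and 0.97 in WT cells. Of the 23 that had risen in WT CD4+ cells, 19 had a smaller difference in KO CD4+ cells, with a median of 0.85 in KO and 1.23 in WT cells. These members were chosen for a high value in WT cells, so that a lower median in KO cells is a description and no test. Without CD8 KO 18 h replicate 2, 2 members were higher and 1 was lower in KO CD8+ cells, and the median over all 44 was 0.10 in place of 0.14. Without CD8 KO 18 h replicate 1, which leaves the array of poorer RNA, 11 were higher. The replicate block gave 11 higher members and 2 lower ones for KO CD8+ cells. Against a fold of 1.5, 0 rose in KO CD8+ and 6 in KO CD4+ cells.

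Tested member by member, the difference of the responses passed for Timm23 in both lineages with the replicate block and for 0 members in the same fit without it. In CD8+ cells 0 members were called (limma, where 0.0403% of all genes were called higher and 0.226% lower in KO than in WT cells), and 0 were higher and 9 lower at an unadjusted p under 0.05. In CD4+ cells 0 were called (where 0.524% of all genes were called higher and 0.888% lower), and 1 was higher and 6 lower at an unadjusted p under 0.05. Testing against a fold of 1.5 likewise called 0. The median difference of the responses was -0.28 in CD8+ and -0.21 in CD4+ cells, against 0.05 and 0.07 over all genes. Timm23, the channel subunit, had 10.48 and 10.81 in KO CD8+ cells at 18 h and 10.27 and 10.63 at 0 h, which overlap, a response of 0.20 ± 0.19 in KO against 1.16 ± 0.19 in WT cells. In KO CD4+ cells it had 10.85 and 10.70 at 18 h, against 10.41 and 10.20 at 0 h, a response of 0.47 ± 0.19 in KO against 1.46 ± 0.19 in WT cells. The differences of these responses, -0.96 ± 0.27 in CD8+ and -0.98 ± 0.27 in CD4+ cells, had adjusted p = 0.226 and 0.119 without the block and 0.0441 and 0.015 with it. Pmpca came nearest to the threshold without the block, with a response of -0.54 ± 0.19 in KO and 0.57 ± 0.19 in WT CD4+ cells (difference -1.12 ± 0.26, adjusted p = 0.0647). With array weights in the limma fit Pmpca passed in CD4+ cells (adjusted p = 0.0321).

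The strongest responders of WT cells also rose in KO CD4+ cells. Hspd1 stood at 12.68 and 12.83 in KO CD4+ cells at 18 h, against 10.16 and 10.26 at 0 h (2.55 ± 0.28, adjusted p = 2.53e-05), and Hspa9 at 11.23 and 11.49 at 18 h, against 9.27 and 9.44 at 0 h (2.01 ± 0.23, adjusted p = 4.4e-05). The 18-h arrays of both lay above all 0-h arrays, as they did for 31.5% of all genes in KO CD4+ cells. Lonp1 rose in KO CD4+ cells to 8.47 and 8.29 at 18 h, against 7.02 and 6.98 at 0 h (1.38 ± 0.17, adjusted p = 7.14e-05), against a WT response of 0.69 ± 0.17, although the difference of the responses did not pass (0.69 ± 0.24, adjusted p = 0.273). In KO CD8+ cells Hspd1 had 11.98 and 10.95 at 18 h, against 10.32 and 10.13 at 0 h (1.24 ± 0.28, adjusted p = 0.0163). The lower of the 18-h values is that of replicate 2, and without it the difference was 1.76 ± 0.23. Tomm40 likewise had 7.40 and 6.13 in KO CD8+ cells at 18 h, against 7.16 and 6.88 at 0 h (-0.26 ± 0.35), and 0.38 ± 0.30 without replicate 2. Gfm1 rose in WT cells of both lineages and stood at 0.07 ± 0.23 in KO CD8+ and 0.62 ± 0.23 in KO CD4+ cells (adjusted p = 0.922 and 0.0733). In KO CD8+ cells it stood at 0.39 without CD8 KO 18 h replicate 2. Spg7 fell in KO cells as well, by 0.76 ± 0.16 in CD8+ and 0.85 ± 0.16 in CD4+ cells. Without CD8 KO 18 h replicate 2 it stood at -0.62 in CD8+ cells, and the member then lower was Pmpca, at -0.84. The call of Spg7 in KO CD8+ cells was also lost with array weights and when the compared groups were fitted alone.

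**Figure D2:**
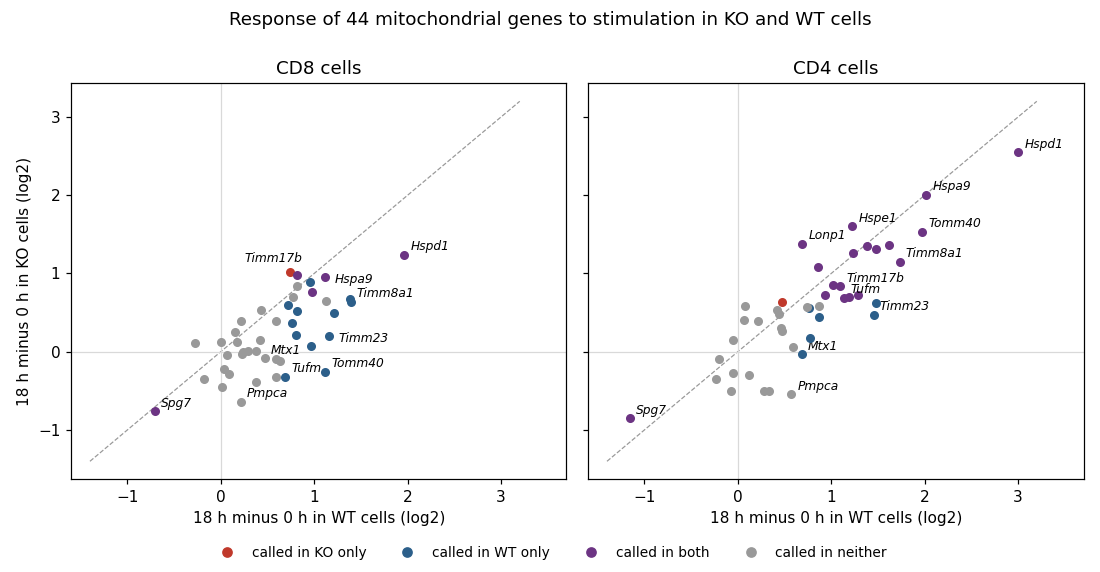
Response to stimulation (18 h minus 0 h, log2) of the 44 members in KO cells (vertical axis) against WT cells (horizontal axis), for CD8+ cells on the left and CD4+ cells on the right; each point is 1 gene, colours show in which genotype it was called, and the dashed line marks equal responses. Most members called in WT cells lie below the line, 15 of 16 in CD8+ and 19 of 23 in CD4+ cells, and Hspe1 and Lonp1 in CD4+ cells lie above it.

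In resting cells few members differed between KO and WT, and those that passed were higher in KO. In KO CD8+ cells at 0 h 2 of 44 members were called higher and 0 lower (1.13% of all genes were called higher and 0.5% lower), and in KO CD4+ cells at 0 h 2 were higher and 0 lower (0.533% and 0.742% of all genes). They were Mtx1 and Tufm in both lineages. Tested against a fold of 1.5, the test that the study's methods describe, 0 members were called between KO and WT cells in either lineage at either time. With the replicate block 4 were higher in CD8+ cells at 0 h, Tomm22 and Timm50 being added (adjusted p = 0.0209 and 0.0394). With 2 arrays a group, a lack of overlap between KO and WT is common. At 0 h the KO arrays lay above the WT arrays for 25.3% of all genes in CD8+ and 15.3% in CD4+ cells. They lay below for 19.4% and 26.2%. Cd44, which the sort kept low and memory cells carry, moved with genotype: it lay between 4.84 and 5.14 in KO and between 6.52 and 6.55 in WT CD8+ cells at 0 h, and between 5.58 and 5.73 in KO and between 6.66 and 7.44 in WT CD4+ cells. Of the 4 other memory markers, Ahnak was likewise lower in KO, at 7.72 to 7.73 against 8.27 to 8.40 in WT CD8+ cells and at 4.95 to 5.04 against 5.95 to 6.43 in WT CD4+ cells. Cxcr3 was higher in KO CD8+ (8.40 to 8.74, against 7.34 to 7.63 in WT) and lower in KO CD4+ cells (4.49 to 5.28, against 6.34 to 6.49 in WT), without overlap. Il2rb was higher in KO CD4+ cells (6.15 to 6.19, against 5.25 to 6.09 in WT) and overlapped in CD8+ cells, and S100a4 overlapped in both. The mean of the 5 markers ran from 6.76 to 7.01 in KO and from 6.91 to 7.07 in WT CD8+ cells, and from 5.12 to 5.55 in KO and from 5.97 to 6.47 in WT CD4+ cells. B cell markers moved too. Of 6, Cd79b, Pax5, Blk and Cd22 were lower in KO CD8+ cells without overlap (Cd79b at 6.31 to 6.99, against 7.14 to 7.57 in WT), and Blk and Cd22 in KO CD4+ cells, and 0 were higher. Their mean ran from 4.19 to 4.41 in KO and from 4.71 to 4.78 in WT CD8+ cells, and from 4.06 to 4.23 in KO and from 4.10 to 4.85 in WT CD4+ cells. The part of either marker list in the resting differences was not tested. At an unadjusted p under 0.05, for which no share of all genes was computed, 10 members were higher and 0 lower in CD8+ cells, and 6 were higher and 1 lower in CD4+ cells. The median over the members was 0.18 in CD8+ and 0.17 in CD4+ cells, against 0.02 and -0.06 over all genes.

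Mtx1 had the largest difference between KO and WT cells among the members that passed. In resting CD8+ cells it stood at 10.66 and 10.70 in KO, against 9.59 and 9.52 in WT cells (1.12 ± 0.17, adjusted p = 0.00587). In resting CD4+ cells it stood at 10.24 and 10.44 in KO, against 9.55 and 9.43 in WT cells (0.84 ± 0.17, adjusted p = 0.0333). KO and WT arrays did not overlap in either lineage, and a dimmer probe set of Mtx1 gave 1.16 and 0.81. At 18 h the difference was 0.57 ± 0.17 in CD8+ and 0.13 ± 0.17 in CD4+ cells (adjusted p = 0.104 and 0.859), with 10.36 and 10.83 in KO against 9.89 and 10.17 in WT CD8+ cells, and 10.28 and 10.33 in KO against 10.11 and 10.24 in WT CD4+ cells. The resting KO cells thus already stood at or above the level of stimulated WT cells in each lineage. Across the 8 group means, Tufm, Tomm22 and Phb2 were most like Mtx1 (Pearson r = 0.83, 0.776 and 0.67).

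Tufm stood at 8.96 and 9.13 in resting KO CD8+ cells, against 7.97 and 7.99 in WT cells (1.06 ± 0.17, adjusted p = 0.00678). In resting CD4+ cells it stood at 8.54 and 8.69 in KO, against 7.77 and 7.78 in WT cells (0.83 ± 0.17, adjusted p = 0.0299), again with no overlap. At 18 h the differences were 0.06 ± 0.17 in CD8+ and 0.38 ± 0.17 in CD4+ cells. Both of its other probe sets were dim, with means of 4.43 and 4.37, and gave differences at 0 h between 0.13 and 0.66 that did not pass.  With the mean over probe sets Tufm did not pass in either lineage. In CD8+ cells the calls of Mtx1 and Tufm were each kept in 13 of 16 fits that left out 1 array, and lost without either CD8 WT 0 h array or without CD8 KO 0 h replicate 2. In CD4+ cells they were kept in 4 and 8 of 16 and were also lost when the compared groups were fitted alone and without the 3 arrays of poorest RNA, where Mtx1 stood at 0.90 ± 0.18 and Tufm at 0.83 ± 0.18 (adjusted p = 0.0567 and 0.0764).

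The next resting differences stayed short of the threshold without the block. Tomm22, the central receptor of the TOM complex, stood at 10.30 and 10.70 in KO, against 9.48 and 9.88 in WT CD8+ cells (0.82 ± 0.20, adjusted p = 0.0613), and at 0.50 ± 0.20 in CD4+ cells (adjusted p = 0.359). Phb2 stood at 0.60 ± 0.18 and 0.62 ± 0.18 in CD8+ and CD4+ cells (adjusted p = 0.145 and 0.155), with no overlap between KO and WT arrays. Among the chaperones, Hspd1 stood at -0.05 ± 0.28 and 0.44 ± 0.28, Hspa9 at 0.03 ± 0.23 and 0.34 ± 0.23, and Hspe1 at -0.32 ± 0.21 and -0.56 ± 0.21. All 7 proteases and prohibitins had a positive difference in CD8+ and 6 of 7 in CD4+ cells, the exception being Lonp1 at -0.19 ± 0.17. Tfam stood at 0.10 ± 0.18 and 0.22 ± 0.18.

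After 18 h of stimulation 0 members were called in CD8+ cells (limma, where 1.59% of all genes were called higher and 1.16% lower), and 2 were higher and 9 lower at an unadjusted p under 0.05. In CD4+ cells 0 were called higher and 1 lower (2.72% and 4.14% of all genes), and 4 were higher and 6 lower at an unadjusted p under 0.05. The medians of the members, -0.07 in CD8+ and -0.05 in CD4+ cells, stood beside 0.07 and 0.02 over all genes. Without CD8 KO 18 h replicate 2 there were again 0 calls in CD8+ cells, with a median of -0.18. Without CD8 KO 18 h replicate 1, which leaves the array of poorer RNA alone, 4 members were called higher and 6 lower. With the replicate block 2 members were lower in CD8+ cells, Timm8a1 and Tomm40, and 3 in CD4+ cells, Timm23, Timm8a1 and Timm10b. Markers also moved at 18 h, without overlap of arrays. Of 5 memory markers, Ahnak was higher and Il2rb lower in KO CD8+ cells. In KO CD4+ cells Cxcr3 was higher and Cd44 and Il2rb lower. Of 6 B cell markers, Cd22 was higher and Cd79b lower in KO CD4+ cells. Cd8a was lower in KO cells of both lineages. KO arrays lay above WT arrays for 23.5% and 25.3% of all genes in CD8+ and CD4+ cells, and below for 12.6% and 22.9%. The part of these markers was not tested.

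The member that passed in KO CD4+ cells was Timm23. It stood at 10.85 and 10.70 in KO, against 11.64 and 11.38 in WT CD4+ cells (-0.73 ± 0.19, adjusted p = 0.0349), and in CD8+ cells at 10.48 and 10.81 in KO, against 10.96 and 11.24 in WT cells (-0.45 ± 0.19, adjusted p = 0.248). KO arrays lay below WT arrays in both lineages, as they did for 12.6% of all genes in CD8+ and 22.9% in CD4+ cells at 18 h. At 0 h the sign was the other, with 0.51 ± 0.19 in CD8+ and 0.25 ± 0.19 in CD4+ cells, neither of which passed. The call was kept in 10 of 16 fits that left out 1 array and lost on removing any single one of the 4 CD4+ arrays at 18 h or of the 2 CD8 WT arrays at 0 h, and also when tested against a fold of 1.5.

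Close to the threshold in CD4+ cells was Timm8a1, with 9.48 and 9.24 in KO, against 10.55 and 10.21 in WT cells (-1.02 ± 0.29, adjusted p = 0.0502), and in CD8+ cells with 8.73 and 9.59 in KO, against 9.69 and 10.20 in WT cells (-0.79 ± 0.29, adjusted p = 0.174). No KO array reached a WT array in either lineage, as for 12.6% of all genes in CD8+ and 22.9% in CD4+ cells. Without CD8 KO 18 h replicate 2 Timm8a1 stood at -1.22 in CD8+ cells. Its call in CD4+ cells turned on the setting: it passed under 8 alternatives besides leaving out single arrays, with adjusted p between 0.00366 and 0.0488 (0.00579 with the replicate block and 0.0295 after quantile normalization), and in CD8+ cells with the block (adjusted p = 0.0347). Timm10b, another small TIM, stood at 9.09 and 9.0 in KO, against 9.97 and 9.89 in WT CD4+ cells (-0.89 ± 0.31, adjusted p = 0.129, and 0.00681 with the block), and Timm9 at 0.00 ± 0.21. Timm10b also passed there with array weights (adjusted p = 0.0342) and when the compared groups were fitted alone (adjusted p = 0.0153). Tomm40 had the lowest difference of any member in CD8+ cells (-1.09 ± 0.35, adjusted p = 0.124, and 0.048 with the block), and stood at -0.45 ± 0.30 without CD8 KO 18 h replicate 2. Hspd1 had -0.78 ± 0.28 in CD8+ cells (adjusted p = 0.166), -0.26 ± 0.23 without that array, and -0.01 ± 0.28 in CD4+ cells. Gfm1 stood at -0.78 ± 0.23 in CD8+ and -0.58 ± 0.23 in CD4+ cells (adjusted p = 0.103 and 0.195), and at -0.46 in CD8+ cells without CD8 KO 18 h replicate 2. On the positive side, Clpp stood at 0.70 ± 0.27 in CD8+ cells, and Spg7 and Lonp1 at 0.53 ± 0.16 and 0.49 ± 0.17 in CD4+ cells (adjusted p = 0.207, 0.0756 and 0.125). Without CD8 KO 18 h replicate 2 Clpp stood at 0.26. With each array centred on its median Spg7 passed, so that 1 member was higher and 1 lower in CD4+ cells.

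**Figure D3:**
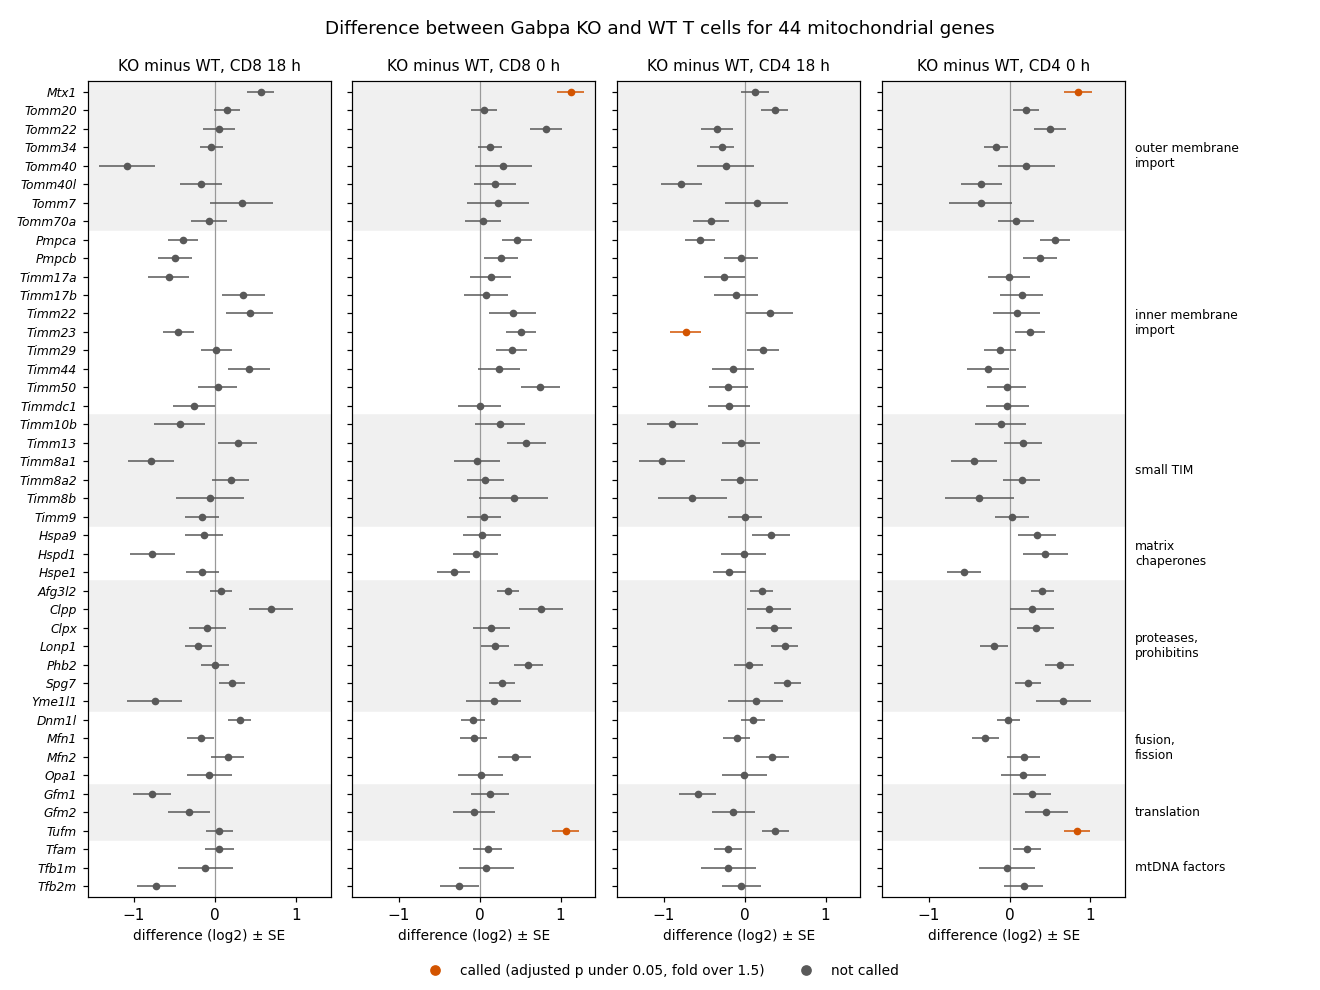
Difference between KO and WT cells (log2, with its SE) for each of the 44 members, in CD8+ cells at 18 h and 0 h and in CD4+ cells at 18 h and 0 h from left to right; shading separates the groups by role and orange marks members that passed. Mtx1 and Tufm pass at 0 h in both lineages, Timm23 passes in CD4+ cells at 18 h, and no other member does.

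**Figure D4:**
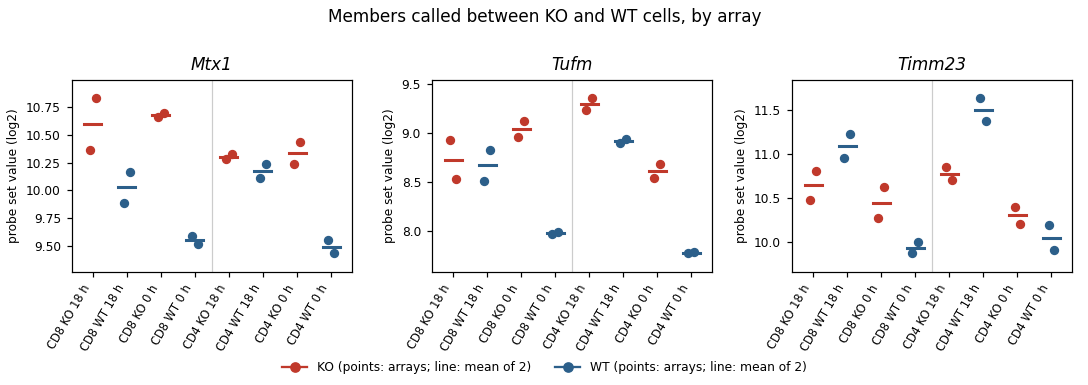
Probe set values (log2) by array of the 3 members that passed between KO and WT cells, with lines at the means of 2 arrays, KO in red and WT in blue. For Mtx1 and Tufm the KO arrays at 0 h lie above the WT arrays at 0 h, and for Timm23 the KO arrays at 18 h lie below the WT arrays at 18 h.

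Between lineages the effect of the deletion did not differ for any member past the threshold. At 18 h 0 of 44 were called (limma, where 0.0242% of all genes were called higher and 0.0161% lower in CD8+ than in CD4+ cells), with 0 higher and 1 lower at an unadjusted p under 0.05. At 0 h 0 were called (0% of all genes in each direction), with 1 higher and 0 lower at an unadjusted p under 0.05. WT CD8+ and CD4+ cells also had 0 called members at 18 h (2.32% of all genes were called higher and 0.96% lower, with 0 members higher and 2 lower at an unadjusted p under 0.05) and 0 at 0 h (0.645% and 0.637% of all genes, with 0 at an unadjusted p under 0.05). At 18 h 39 of the 44 had a lower mean in WT CD8+ than in WT CD4+ cells, with a median difference of -0.25, against -0.01 over all genes.

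The promoter word was set beside these differences. Mtx1, Tufm and Timm23 were among the 22 members that held CCGGAAG, and among the 18 with a window and no match 0 were called between KO and WT cells at either time in the fit without the block. With the replicate block Timm8a1, Tomm40 and Timm50, which had a window and no match, passed as well. So did Tomm22 and Timm10b, which held the word. A link between the word and the calls was not tested. The 22 had median differences of -0.07 and 0.21 in CD8+ cells and of -0.14 and 0.23 in CD4+ cells at 18 and 0 h, against -0.08 and 0.14, and -0.04 and 0.16, for the 18 without. Timmdc1, with the most matches, stood between -0.26 and 0.00 in the 4 comparisons. The response to stimulation had medians of 0.02 in KO and 0.59 in WT CD8+ cells, and of 0.35 in KO and 0.64 in WT CD4+ cells, for the 22 with the word. For the 18 without it the medians were 0.39 in KO and 0.75 in WT CD8+ cells, and 0.78 in KO and 0.82 in WT CD4+ cells.

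Genes of the same pathways outside the rule were read from lists chosen with earlier results of these data known, so that their counts are a description. Over all genes 1.16% and 4.14% were lower, and 1.59% and 2.72% higher, in KO CD8+ and CD4+ cells at 18 h, and 0.5% and 0.742% were lower, and 1.13% and 0.533% higher, at 0 h. Of 12 other import and assembly genes, 3 were lower and 0 higher at 18 h in KO CD8+ cells and in KO CD4+ cells, and 2 and 3 were lower at 0 h. Mtx2, the partner of Mtx1 in the metaxin complex, differed by -2.70 ± 0.32 and -3.39 ± 0.32 in CD8+ and by -2.01 ± 0.32 and -2.74 ± 0.32 in CD4+ cells at 18 and 0 h. Mtx1 was thus higher and Mtx2 lower in resting KO cells of each lineage. Romo1 and Timm10, the partner of Timm9, made up the rest. Timm10 had -1.36 ± 0.29 in CD8+ and -2.21 ± 0.29 in CD4+ cells at 18 h, where Timm9 had -0.16 ± 0.21 and 0.00 ± 0.21. Of 12 other quality control genes 3 and 2 were lower in CD8+ and CD4+ cells at 18 h, and 1 and 2 at 0 h. Stoml2, which binds prohibitins, had -2.04 ± 0.26 and -3.03 ± 0.26 at 18 h, where Phb2 had 0.00 ± 0.18 and 0.05 ± 0.18. The others were the protease Oma1 in all 4 comparisons and Trap1, an HSP90 of the matrix, in CD8+ cells at 18 h (-0.66 ± 0.15).

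Of 6 other fusion and fission genes, Mtfp1, of mitochondrial fission, was lower in KO CD4+ cells at 18 h (-2.09 ± 0.33), and 0 were called in the other 3 comparisons. Among 16 other factors of mitochondrial gene expression, 1 and 4 were lower in CD8+ and CD4+ cells at 18 h and 1 and 1 at 0 h. Mtif2, the initiation factor of the mitochondrial ribosome, was lower in all 4, by 1.22 ± 0.17 and 0.78 ± 0.17 in CD8+ and 1.86 ± 0.17 and 0.89 ± 0.17 in CD4+ cells at 18 and 0 h. Mterf2, Slirp and Tefm were lower in KO CD4+ cells at 18 h, by 1.91 ± 0.31, 1.51 ± 0.35 and 1.38 ± 0.37. Of 13 regulators of mitochondrial biogenesis and stress, 2 and 5 were higher in CD8+ and CD4+ cells at 18 h, and 1 and 1 at 0 h. They were Gabpb1, the partner subunit of GABP, in all 4, Ddit3 at 18 h in both lineages (1.92 ± 0.22 and 2.70 ± 0.22), and Atf4, Atf5 and Gabpa in CD4+ cells at 18 h. Atf5 and Atf4, which take part in the response to misfolded mitochondrial protein, had differences of 1.52 ± 0.19 and 1.03 ± 0.23 there. The matrix chaperones among the members had -0.01 ± 0.28 (Hspd1), -0.19 ± 0.21 (Hspe1) and 0.33 (Hspa9), and the matrix proteases Lonp1 and Clpp had 0.49 ± 0.17 and 0.30. Whether these members respond to Atf5 or Atf4 was not tested.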

How the data were processed

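Expression in 16 samples was measured on Affymetrix mouse arrays after amplification of total RNA. Values were used as deposited: log2 signals per probe set, for which the submitters' processing notes name affy and limma (versions and summary method not given in the sources used here). Array medians lay between 5.24 and 5.43, and no further normalization was applied. A shift of all transcripts in a cell is invisible on this scale. Precision is limited by the number of arrays. Groups came from the labels.

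Of 22690 probe sets, 20393 named exactly 1 gene, 691 several and 1606 none. Each of 12394 genes was read from its brightest probe set, and 28 members had several. Probe sets were not tested for signal from paralogs such as Timm17a and Timm17b. The linear model (limma 3.58.1, R 4.3.3) had 8 group means, 8 residual and 4.32 prior degrees of freedom, two-sided tests and Benjamini-Hochberg adjustment over all 12394 genes. A call needed an adjusted p under 0.05 and a fold over 1.5. The study's methods instead compute moderated p relative to a fold of 1.5. This stricter test was run here with limma's treat, as an alternative. Each sort was divided between 0 h and 18 h per the labels, and deviations of same-numbered 18-h and 0-h arrays of a lineage and genotype were correlated at 0.27 to 0.56 over genes, so blocked values (replicate number within a lineage) stand beside the results they change. Errors are SE with n = 2 arrays per group. An exact permutation test of 2 against 2 arrays cannot reach 0.05. The steps were tested on simulated data with independent noise in each array. Those data held no correlation of same-numbered arrays and no array of poorer RNA, so the test covers neither. The members, lists, tests and words were chosen with earlier results of these data known, and the test of the WT response between lineages was added last. Array values are given for members called between KO and WT cells and for the 5 highest and 3 lowest responders, chosen by rule; those of Timm8a1, Timm10b, Tomm22 and other uncalled members were added after their values were seen. Promoter windows came from RefSeq (GRCm38.p6). Alternatives were a test against a fold of 1.5, centring, quantile normalization, other probe sets, a filter on dim genes, separate fits, array weights, blocks for replicate number and leaving out arrays.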

Additional observations from a re-analysis of the deposited data

How the results depend on the processing

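Of the 71 member calls over all comparisons, 29 were kept in all 16 fits that left out 1 array and 0 changed sign. With 1 array of the compared groups left out, the remaining array is assumed to vary like the other groups. The count of members higher in KO ran from 0 to 4 in CD8+ cells at 0 h and from 0 to 2 in CD4+ cells at 0 h, and that of members lower in KO CD4+ cells at 18 h from 0 to 4. In CD8+ cells at 18 h it ran from 0 to 4 higher and from 0 to 6 lower. The response to stimulation kept 4 to 20 higher members in WT CD8+ cells, with 0 to 1 lower, 17 to 23 in WT CD4+, 0 to 11 in KO CD8+, with 0 to 2 lower, and 11 to 19 in KO CD4+ cells. The lowest counts came without CD8 WT 18 h replicate 2 (4), CD8 KO 0 h replicate 1 (0) and CD4 KO 0 h replicate 2 or CD4 KO 18 h replicate 1 (11), and the count of 16 became 7 and 6 in WT CD8+ cells without CD8 WT 0 h replicates 1 and 2. In KO CD8+ cells the count of 5 became 1 without CD8 KO 0 h replicate 2, 2 without CD8 KO 18 h replicate 2, and 3 on removing any single array of the CD8 WT 0 h, CD4 KO 18 h or CD4 WT 18 h groups. The difference of the responses had 0 to 3 lower members in CD8+ and 0 to 1 in CD4+ cells, and the lineage difference of the KO effect at 18 h had 0 to 2 lower.

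Tested against a fold of 1.5 instead of 0, 0 members were called between KO and WT cells in any comparison, and 1 was higher in WT CD8+, 12 in WT CD4+, 0 in KO CD8+ and 6 in KO CD4+ cells on stimulation, with 0 lower in WT CD8+, KO CD8+ and KO CD4+ cells. Centring gave 1 higher member in KO CD4+ cells at 18 h and 2 lower on stimulation of KO CD8+ cells. Quantile normalization gave 2 lower in each of these, and so did leaving out dim genes. With the mean over probe sets, 1 member was higher in KO in each lineage at 0 h, 2 were lower in KO CD4+ cells at 18 h and 3 were higher on stimulation in KO CD8+ cells. Probe sets without a suffix gave 11 and 3 higher on stimulation in KO CD4+ and KO CD8+ cells and 0 lower in WT CD8+, KO CD4+ and KO CD8+ cells, where the probe set of Spg7 has such a suffix. Fits of the compared groups alone gave 0 higher in KO CD4+ cells at 0 h, 3 lower at 18 h, and 0 in either direction on stimulation of KO CD8+ cells. Array weights gave 4 lower in KO CD4+ cells at 18 h, 5 higher in KO CD8+ cells at 0 h, 1 higher and 0 lower on stimulation of KO CD8+ cells and 1 lower for the difference of responses in CD4+ cells. Without the 3 arrays of poorest RNA, 0 were higher in KO CD4+ cells at 0 h, 4 and 1 were lower in KO CD4+ and CD8+ cells at 18 h, and 2 were higher and 0 lower on stimulation in KO CD8+ cells. The cause of these changes was not tested.

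Samples of 0 h and 18 h come from divided sorts, but which numbers belong together is not stated. The deviations of same-numbered arrays were correlated at 0.18 to 0.56 between groups within CD8+ and at 0.26 to 0.45 within CD4+ cells, and at -0.60 to -0.12 between lineages, over genes, which are not independent. With a replicate block within each lineage, 3 members were lower in KO CD4+ and 2 in KO CD8+ cells at 18 h, 4 were higher in KO CD8+ cells at 0 h, 11 were higher and 2 lower on stimulation of KO CD8+ cells, and 1 member, Timm23, was lower for the difference of responses in CD8+ and in CD4+ cells. On stimulation of WT cells the block added the calls named with that response. A block with crossed pairing between lineages, added after seeing the data, gave 3 and 2 members lower in KO CD4+ and CD8+ cells at 18 h, 11 higher with 2 lower on stimulation of KO CD8+ cells, and 1 and 2 lower for the differences of responses in CD8+ and CD4+ cells.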

Other observations

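The response of the neighbouring pathway genes to stimulation was as follows. Of 12 other import and assembly genes 3 rose in KO CD8+ and 6 in WT CD8+ cells, and 5 in KO CD4+ and 7 in WT CD4+ cells. Of 12 other quality control genes 0 rose in KO CD8+ and 4 in WT CD8+ cells, and 1 in KO CD4+ and 5 in WT CD4+ cells, with medians of 0.09, 0.48, 0.27 and 0.58, and 1 fell in KO CD4+ cells. Of 16 other factors of mitochondrial gene expression 0 rose in KO CD8+ and 2 in WT CD8+ cells, and 3 in KO CD4+ and 3 in WT CD4+ cells. Of 6 other fusion and fission genes 0 and 1 rose in KO and WT CD8+ cells, and 2 and 2 in KO and WT CD4+ cells. The background shares are those given with the members. The difference between KO and WT cells in these counts was not tested.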
